A study of Mus musculus with 12 samples.

Results

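Transcripts of the proteasome, the particle that degrades ubiquitin-tagged proteins, were described across 12 RNA-seq libraries of the mouse ventral hippocampus. The members were all protein-coding genes whose mouse symbol begins with Psma, Psmb, Psmc, Psmd, Psme, Psmf or Psmg, which selected 47 of the 13951 genes in the deposited table. The annotation lists 50 such genes, and Psma8, Psmb11 and Psme2b were not analysed here. By role, the 47 comprised 7 alpha-ring and 7 beta-ring subunits of the 20S core, 3 inducible catalytic beta subunits, 6 ATPases, 3 other base subunits and 8 lid subunits of the 19S cap, 5 activators or inhibitors, 4 core assembly factors and 3 cap assembly factors. The remaining gene, Psmc3ip, carries the prefix but encodes a recombination factor that is not a proteasome subunit.

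The mice were C57BL/6J, aged 12 to 16 weeks, and each library held polyadenylated RNA from 1 mouse. Both sexes were sampled for each genotype, wild type (WT) and Angelman syndrome (AS), with 3 mice in each of the 4 groups and no treatment given in the labels. The labels name the AS mice by the syndrome only, so the allele they carried is not stated here. Replicates are numbered in accession order, and the numbers pair nothing.

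The proteasome cuts proteins inside a barrel of stacked alpha and beta rings, the 20S core, whose catalytic sites lie in the beta rings. A 19S cap recognises ubiquitin chains, removes them in the lid and unfolds the substrate with a ring of ATPases in the base. Other activators, and in immune cells or under interferon other catalytic subunits, replace these parts. Angelman syndrome follows loss of the maternal copy of UBE3A, in neurons the only active copy, and the UBE3A protein is a ubiquitin ligase that binds the proteasome.

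Values are log2(abundance + 1), where abundance is read as an RSEM transcript level, corrected for gene length, from deposited values taken to be natural logs. The labels and the table state neither the abundance unit nor the log base. Were it 2, differences would shrink to 0.693 of the printed size, and abundances and their ratios would shrink further. Differences are means of 3 or 6 libraries fitted with limma over 13858 genes, and each error on a difference is a standard error. A gene counted as called where its p, adjusted by Benjamini-Hochberg over those genes, was under 0.05. In bulk tissue, fewer cells of a type and less RNA per cell cannot be told apart.

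Several libraries stood apart for reasons outside the proteasome. WT female 1 had Xist at 0.35, within the 0.17 to 0.52 of the males and below the 6.00 to 6.44 of the other 5 female libraries, while its Y-linked genes lay at 0.68, far below the 3.86 to 4.19 of the males. Its label was kept, and the counts and medians of the comparisons that use WT females are also given without it. The 18 choroid plexus markers averaged 2.93 to 5.14 in WT female 1, WT female 2, AS female 2 and AS male 2 and 1.17 to 1.66 in the other 8 libraries. The 9 excitatory neuron markers averaged 6.21 to 6.30 by group, and lay from the 53.5th (Prox1) to the 99.7th percentile (Camk2a) of all genes. Ube3a was lower in AS than in WT by less than its error, with a mean of 4.24 ± 0.13 (SD, n = 3) in WT females, 4.12 ± 0.15 in the AS females, 4.07 ± 0.12 in the WT males and 4.03 ± 0.27 in the AS males, so its level does not check the genotype labels.

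Proteasome subunits were among the abundant transcripts of the tissue. The median member lay at the 89.9th percentile of levels, 23 of 47 lay above the 90th percentile, and 6 lay below the 50th. The 14 constitutive core subunits spanned mean abundances of 69.1 (Psma5) to 134 (Psmb7), a range of 1.94-fold. With base 2 the abundance of Psmb7 would be 29.0. The 17 subunits of the 19S cap spanned 29.4 (Psmd11) to 110 (Psmc5), or 3.74-fold. Core and cap assembly factors, which help build the particle without staying in it, lay at 10.2 (Psmd9) to 30.7 (Psmd5). All but Psmd5, which was just above Psmd11, lay below every core and cap subunit. In the order of all members by mean level, 36 of 46 neighbouring pairs differed by no more than the larger of their within-group SDs. Within a class the order was clearer, and 23 of 37 neighbouring pairs differed by more than that SD. In the beta ring 5 of 6 did, all but Psmb4 and Psmb1, and Psmb7 was above Psmb4 in 11 of 12 libraries. The alpha ring had 3 of 6, the lid 3 of 7 and the ATPases 2 of 5, with Psmc3 and Psmc1 and the trio Psmc6, Psmc2 and Psmc4 within their spread.

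**Figure D1:**
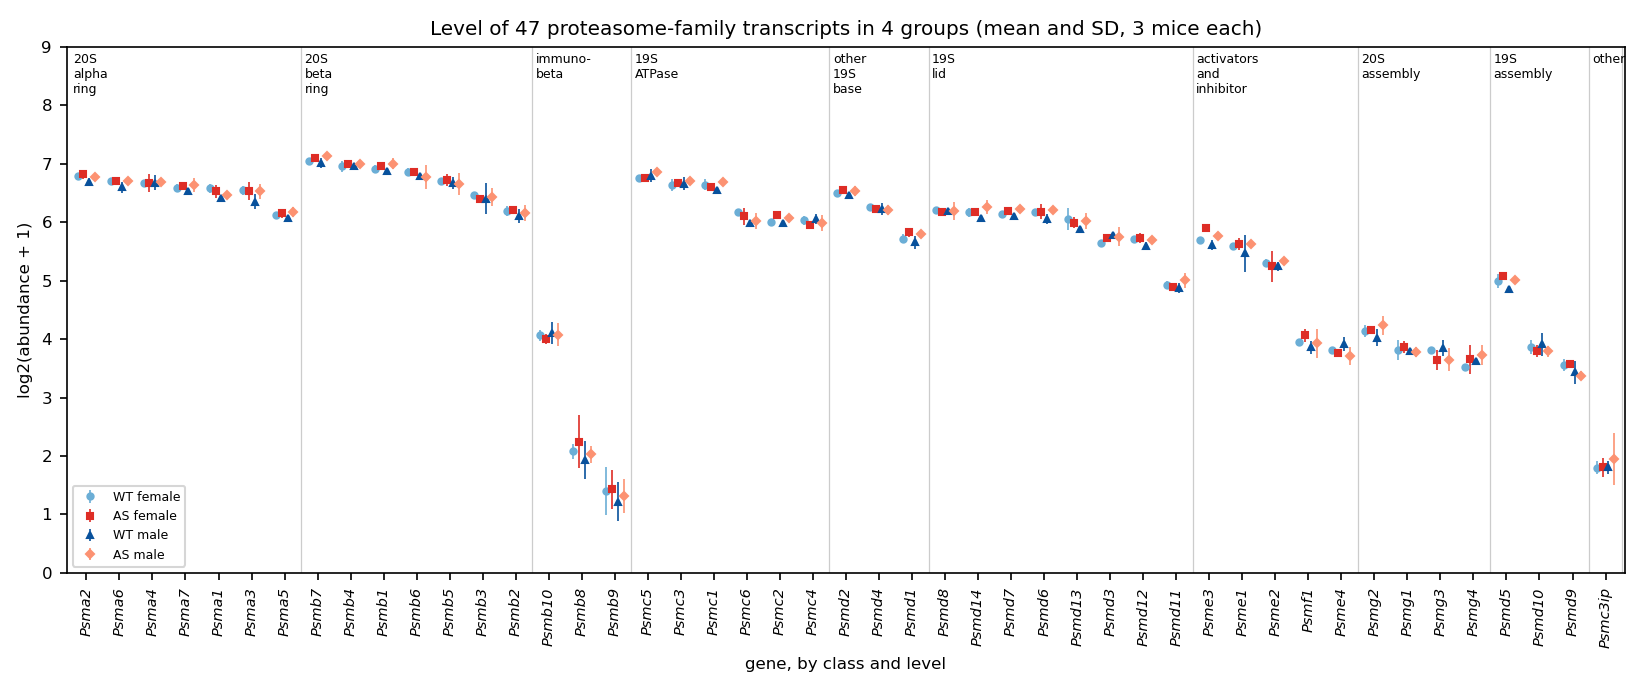
Level of the 47 transcripts on the y axis as log2(abundance + 1), with genes on the x axis ordered by class and then by level; symbols are group means of 3 mice and bars are SDs. Core and cap subunits form a plateau, with Psmb7 highest at a mean of 7.08, except the lid subunit Psmd11 at 4.92. The inducible subunits Psmb8 and Psmb9 lie lowest in the proteasome at 2.07 and 1.34 (Psmc3ip is the class marked other).

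The levels of members also varied little between mice. The median within-group SD over the 47 members was 0.089, against 0.14 over all genes tested. Among transcripts that stayed in the middle of the range in every library, where the deposited values had been brought to a shared distribution, the 44 members had a median SD of 0.084 and all 8085 such genes had 0.12. These genes were not matched to the members by level, and the median of all members lay at the 89.9th percentile of levels. The lid subunit Psmd7 had the smallest SD of the members, 0.023, and the inducible subunit Psmb9 the highest, 0.34.

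Promoter sequence was read to describe what the members share beyond their names. RefSeq promoters on GRCm38.p6, from 250 bases before to 50 bases after the first transcribed base, were found for 40 of the 47 members, which have 43 promoters. The first motif, TGACNNNGC on either strand, is the core of the antioxidant response element bound by NFE2L1 and NFE2L2, the former a known activator of proteasome genes. It occurred in 6 of the 43 promoters (14.0%), those of Psmb5, Psmb6, Psmc6, Psmd9, Psmd12 and Psme4. The share was 12.4% of all 32851 promoters and 14.0% of the 12965 promoters of coding genes tested here, so the members' share was that of other coding genes. The second motif, CCGGAAG on either strand, is the core bound by ETS factors and was looked at only after the promoters were seen. It occurred in 16 of the 43 member promoters (37.2%), against 8.86% of all promoters and 16.2% of those of tested coding genes. It was present in promoters of ATPase, lid, base, activator and assembly genes, of Psma6 and of Psmc3ip, which is no proteasome subunit. None of the promoters found for the beta ring held it, but no promoter was found for Psmb1, Psmb2 or Psmb7. A match describes the letters only.

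A stretch of 120 bases upstream of the first transcribed base in both RefSeq and GENCODE is shown for 5 members, with motif matches in capitals. Psme3 and Psmd14 had the smallest p for genotype in females and in males, Psmc2 was the member whose genotypes did not overlap in either sex, and Psmb5 and Psmb6 are catalytic subunits with the antioxidant response core. Psme3 (chr11:101316093-101316212, plus strand) holds CCGGAAG, Psmc2 (chr5:21785155-21785274, plus strand) holds it on the opposite strand, Psmd14 (chr2:61711574-61711693, plus strand) holds neither motif, and Psmb5 (chr14:54618023-54618142, minus strand) and Psmb6 (chr11:70525237-70525356, plus strand) hold TGACNNNGC.
Psme3: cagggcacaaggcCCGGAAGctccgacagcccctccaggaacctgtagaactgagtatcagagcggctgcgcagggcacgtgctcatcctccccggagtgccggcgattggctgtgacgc
Psmc2: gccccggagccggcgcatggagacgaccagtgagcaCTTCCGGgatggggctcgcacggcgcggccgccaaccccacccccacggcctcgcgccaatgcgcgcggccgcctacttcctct
Psmd14: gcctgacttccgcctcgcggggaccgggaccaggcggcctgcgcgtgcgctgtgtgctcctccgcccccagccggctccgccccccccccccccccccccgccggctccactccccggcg
Psmb5: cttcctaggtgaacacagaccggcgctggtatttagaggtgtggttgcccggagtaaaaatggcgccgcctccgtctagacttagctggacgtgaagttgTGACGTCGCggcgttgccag
Psmb6: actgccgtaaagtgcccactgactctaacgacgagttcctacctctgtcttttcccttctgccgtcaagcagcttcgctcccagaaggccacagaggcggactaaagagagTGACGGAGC
Relative to the RefSeq first transcribed base, counted as 0, the match begins at -107 in Psme3, at -84 in Psmc2, at -47 in Psmb5 and at -9 in Psmb6. The printed Psmb5 stretch ends at -28, because GENCODE places the start of the gene upstream of the RefSeq start, and the other 4 end at -1.

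Libraries differed in how many members lay high or low at once. In WT male 3 only 5 of 47 members were above their own 12-library mean, and in WT male 2 only 12 were, while AS male 3 had 36. Of all genes tested, 48.7%, 49.4% and 54.5% were above their own mean in these 3 libraries. The other 9 libraries ranged from 21 to 31 members. The shift was small in size, with a median deviation over the members of -0.09 in WT male 3, -0.06 in WT male 2 and 0.07 in AS male 3. Averaged over all members, the level was 5.50 ± 0.02 (SD, n = 3) in WT females, 5.51 ± 0.03 in the AS females, 5.44 ± 0.05 in the WT males and 5.50 ± 0.05 in the AS males.

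**Figure D2:**
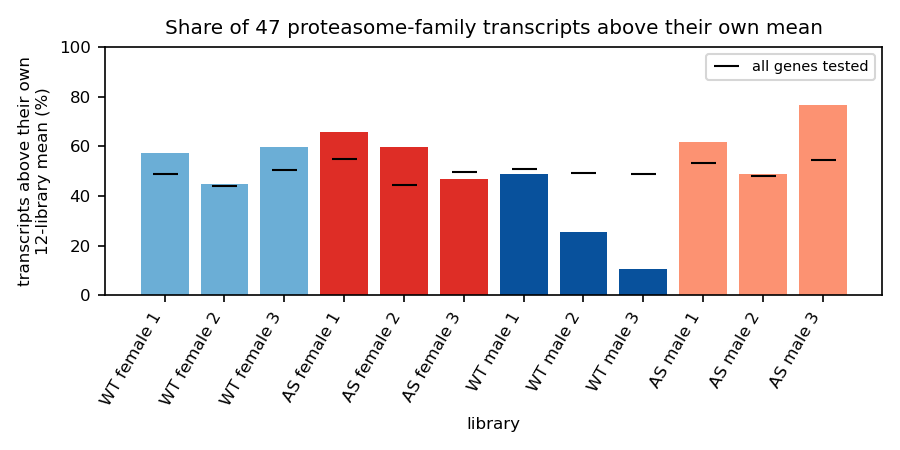
Percentage of the 47 transcripts above their own mean over the 12 libraries (bars, y axis) in each library (x axis), with the same share over all genes tested as black dashes. WT male 2 and WT male 3 hold the lowest bars, 12 and 5 of 47 members, while the dashes lie between 44.1% and 54.8%.

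**Figure D3:**
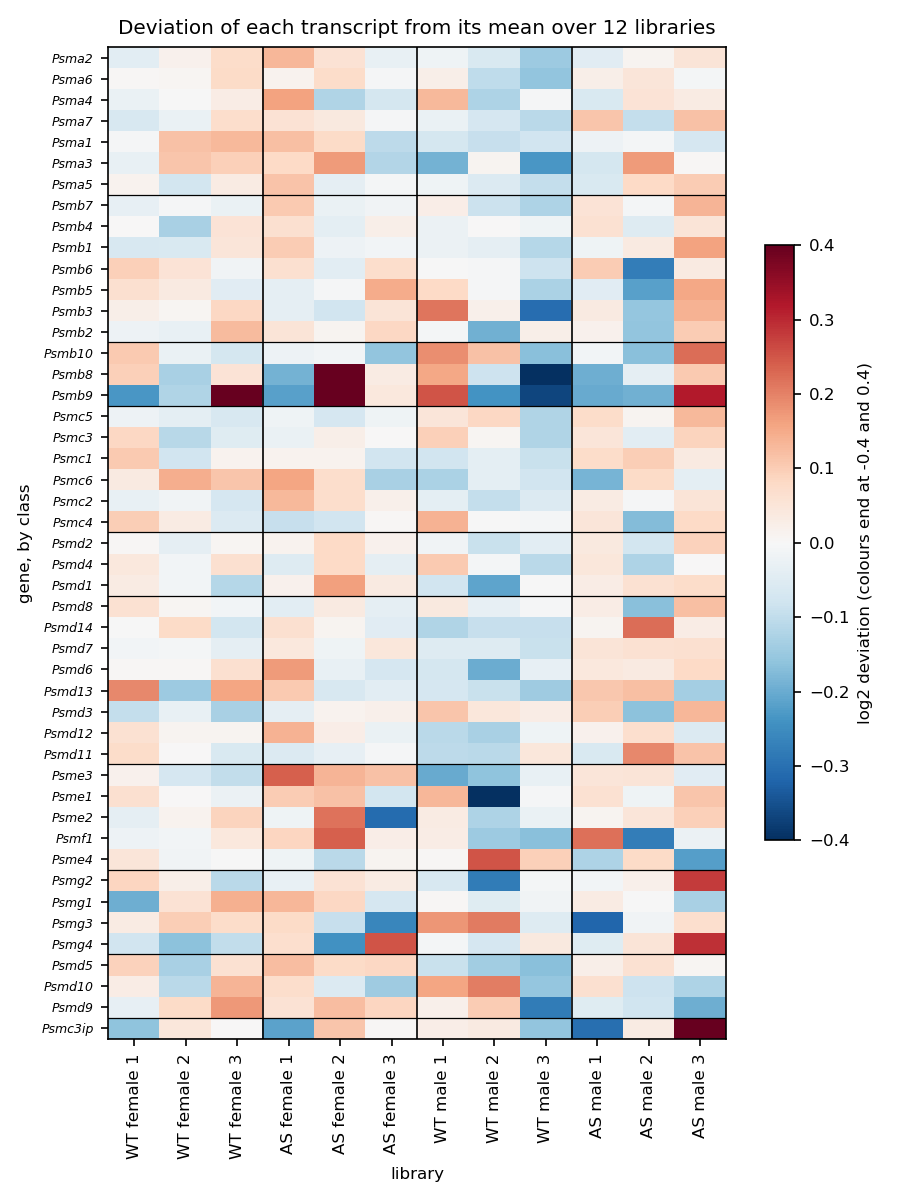
Log2 deviation of each transcript (rows, by class) from its own mean over the 12 libraries (columns), with red above and blue below the mean and colours ending at -0.4 and 0.4. WT male 3 is blue in nearly every class, with only 5 of 47 members above their mean.

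In males, which the design allows to be asked separately from females, no member passed the threshold between AS and WT, and 0% of all 13858 genes did. The members' differences lay mostly above 0, in 35 of 47 against 52.4% of all genes, with a median of 0.09 against 0.01. At an unadjusted p under 0.05, limma gave 9 members, 8 higher and 1 lower in AS (Psme4), against 6.42% of all genes, 3.21% in each direction. The 3 AS males lay wholly above the 3 WT males for 9 members, namely Psmd14, Psmd7, Psmd5, Psmc1, Psmd1, Psmd6, Psmb1, Psmc2 and Psma1, against 6.02% of all genes, and wholly below for none, against 5.18%. All 7 alpha-ring subunits had differences above 0 (median 0.10), as did 6 of 8 lid subunits (0.13), 5 of 6 ATPases (0.05), 5 of 7 beta-ring subunits (0.03), 4 of 5 activators or inhibitors (0.09), 2 of 3 other base subunits (0.07) and 2 of 3 inducible subunits (0.09). Assembly factors were mixed, with 2 of 4 for the core (0.05) and 1 of 3 for the cap (-0.06). The male result leaned on single libraries: the median over members was 0.04 without AS male 3, 0.05 without WT male 2 and 0.06 without WT male 3, and the count at an unadjusted p under 0.05 was 4 without WT male 2, 4 without WT female 2 and 5 without WT female 1, while that over all genes was 617, 835 and 836, against 890 with all libraries. Female libraries enter the male comparison only through the shared spread. Fitted on the 6 male libraries alone, 2 members and 670 of all genes had an unadjusted p under 0.05.

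In females the members were spread about 0. No member passed the threshold and 0% of all genes did. Differences lay above 0 for 28 of 47 members, against 51.6% of all genes, with a median of 0.02 against 0.00. limma gave 2 members at an unadjusted p under 0.05, Psme3 and Psmc2, both higher in AS, against 3.16% of all genes and 1.49% in that direction. AS females lay wholly above WT females for Psme3, Psmc2 and Psmd2, against 4.99% of all genes, and wholly below for no member, against 4.02%. Class medians ran from -0.01 (ATPases) to 0.04 (other base subunits). Without WT female 1 the median over members was 0.01, 26 of 47 differences lay above 0, and Psme3 was the 1 member at an unadjusted p under 0.05, with 490 of all genes against 438 with all libraries.

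Over both sexes no member passed, and 0% of all genes did. Differences lay above 0 for 33 of 47 members (52.7% of all genes), with a median of 0.05 against 0.01. limma gave 6 members at an unadjusted p under 0.05, 5 higher (Psme3, Psmc2, Psmd5, Psmd1 and Psmd7) and 1 lower (Psmg3), against 5.35% of all genes, 2.77% higher and 2.58% lower. Only Psmc2 had all 6 AS libraries above all 6 WT libraries, against 0.231% of all genes, and no member had them all below, against 0.13%. The count at an unadjusted p under 0.05 was 3 without WT female 3 (735 of all genes, against 741 with all libraries), 4 without WT male 2 (673), 11 without AS male 2 (1005) and 2 when the 4 libraries with high choroid plexus markers were left out (977). Without WT female 1, 5 members had an unadjusted p under 0.05 (712 of all genes), 32 of 47 differences lay above 0 and the median was 0.04.

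Some marker lists lay wholly to one side of 0 over both sexes beside these differences, while 52.7% of all genes lay above 0. Of 9 interneuron markers, all were lower in AS over both sexes, 3 of them at an unadjusted p under 0.05 and none called by limma. Of all genes, 5.35% had such a p, 2.58% of them lower in AS as a share of all genes. The list means were 5.63 to 5.86 in WT females, 5.47 to 5.58 in AS females, 5.67 to 5.77 in WT males and 5.52 to 5.63 in AS males. Of 8 oligodendrocyte markers, all were higher in AS over both sexes and none had an unadjusted p under 0.05, with list means of 6.33 to 6.79, 6.37 to 7.03, 6.15 to 6.93 and 6.41 to 6.63 in the same order of groups. Of 18 choroid plexus markers, all were lower in AS over both sexes (median -0.24) and in females (-0.99). In males all were higher (0.48), and none had an unadjusted p under 0.05 for genotype in limma. Their interactions were all above 0 (median 1.46), against 50.5% of all genes. In WT mice all 18 were lower in males, 15 at an unadjusted p under 0.05, against 3.3% of all genes in that direction. The part of these lists in the members' differences was not tested.

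The difference between the sexes' genotype effects was tested as an interaction. No member passed and 0% of all genes did, no member had an unadjusted p under 0.05 in limma, against 3.77% of all genes. The interaction was above 0 for 33 of 47 members, against 50.5% of all genes, with a median of 0.05. A greater difference in males than in females was therefore not shown for any member. The interaction median was 0.01 without AS male 3. Without WT female 1 it was 0.04, with 31 of 47 above 0 and again no member at an unadjusted p under 0.05.

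**Figure D4:**
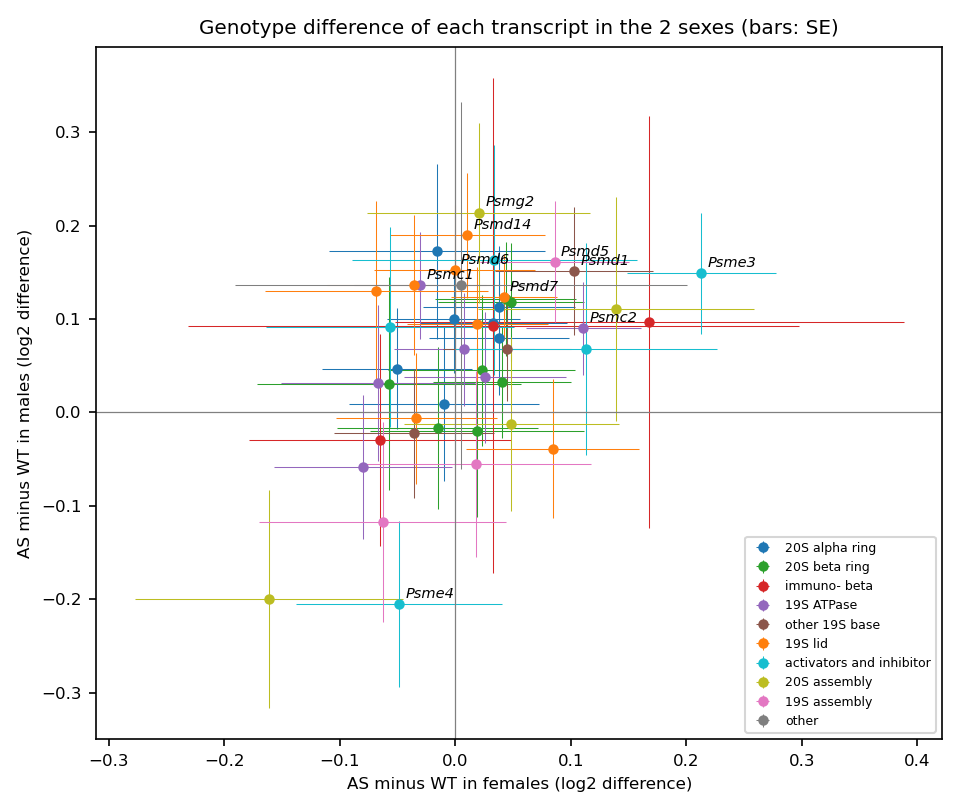
Log2 difference AS minus WT of each transcript in females (x axis) and in males (y axis), coloured by class, with standard errors from limma as bars and names beside those with an unadjusted p under 0.05 in either sex. Most points lie above the horizontal line at 0 (35 of 47 in males), 28 of 47 lie to the right of the vertical line, and Psme3 stands at 0.21 in females and 0.15 in males.

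In WT mice, members were lower in males than in females more often than higher, 36 against 11 (51.2% of all genes were higher), with a median of -0.06. No member passed the threshold, and 0.0289% of all genes did. One had an unadjusted p under 0.05 in limma (Psma1, lower in males), against 7.7% of all genes and 3.3% in that direction. WT males lay wholly below WT females for Psma1, Psmc6, Psmd12, Psmd6, Psmd14 and Psmd7, against 6.62% of all genes, and wholly above for Psmd3 and Psmg4, against 8.12%. Without WT female 1, 11 members were again higher in males, the median was -0.05, and 2 members had an unadjusted p under 0.05, with 794 of all genes against 1067 with all libraries. The WT males enter both this comparison and that of genotype in males, so the 2 are not independent. In the AS mice, 25 members were higher and 22 lower in males, against 51.5% of all genes higher, with a median of 0.00. No member passed there either, against 0.0361% of all genes, and Psme3 alone had an unadjusted p under 0.05, lower in males, against 3.63% of all genes and 1.52% in that direction. AS males lay wholly below AS females for Psme3, Psmd9 and Psmd5 (3.49% of all genes) and wholly above for Psmc5, Psmc1 and Psmd7 (4.99%).

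Among the alpha-ring subunits, which form the gated entry of the core, Psma1 and Psma3 had the clearest differences by sex or by interaction. Psma1 was at 6.49, 6.61 and 6.63 in the WT females, 6.62, 6.57 and 6.39 in the AS females, 6.43, 6.41 and 6.42 in the WT males and 6.48, 6.49 and 6.43 in the AS males. The WT males lay close together and below every WT female, by -0.16 ± 0.06 (limma adjusted p = 0.632). Psma3 was at 6.46, 6.60 and 6.59 in the WT females, 6.57, 6.66 and 6.37 in the AS females, 6.30, 6.50 and 6.26 in the WT males and 6.42, 6.66 and 6.50 in the AS males. Its groups overlapped by genotype in both sexes, with an AS minus WT difference of -0.02 in females and 0.17 in males. The interaction was 0.19 ± 0.13, which limma did not call.

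The constitutive catalytic subunits Psmb5, Psmb6 and Psmb7 carry the chymotrypsin-like, caspase-like and trypsin-like sites of the beta ring. Psmb5 was at 6.75, 6.72 and 6.64 in the WT females, 6.65, 6.69 and 6.84 in the AS females, 6.77, 6.68 and 6.56 in the WT males and 6.64, 6.47 and 6.84 in the AS males. Psmb6 was at 6.92, 6.88 and 6.81 in the WT females, 6.89, 6.78 and 6.89 in the AS females, 6.82, 6.82 and 6.74 in the WT males and 6.92, 6.55 and 6.86 in the AS males. Both overlapped between all groups, and the genotype difference over both sexes had a 95% interval of -0.14 to 0.14 for Psmb5 and -0.15 to 0.12 for Psmb6. Psmb7, the most abundant member, was at 7.04, 7.07 and 7.05 in the WT females, 7.18, 7.05 and 7.06 in the AS females, 7.10, 6.99 and 6.95 in the WT males and 7.13, 7.07 and 7.21 in the AS males. AS exceeded WT for Psmb7 by 0.04 ± 0.06 in females and 0.12 ± 0.06 in males (limma adjusted p = 0.772 in males), and its exons share 405 bases with Nek6 on the opposite strand, whose reads cannot be told apart because the kit does not mark strand. Psmb5, Psmb6 and Psmb7 also have annotated pseudogene copies that could share reads. Psmb2, a noncatalytic subunit, was at 6.15, 6.14 and 6.30 in the WT females, 6.22, 6.18 and 6.25 in the AS females, 6.16, 5.98 and 6.19 in the WT males and 6.19, 6.01 and 6.27 in the AS males. It was low in WT male 2 and AS male 2, and the groups overlapped.

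The inducible subunits Psmb8, Psmb9 and Psmb10 replace Psmb5, Psmb6 and Psmb7 in the immunoproteasome, which favours peptides for presentation on MHC class I. Psmb8 was at 2.17, 1.94 and 2.12 in the WT females, 1.88, 2.75 and 2.10 in the AS females, 2.22, 1.99 and 1.58 in the WT males and 1.87, 2.03 and 2.17 in the AS males. Psmb9, the least abundant member, was at 1.10, 1.22 and 1.86 in the WT females, 1.12, 1.78 and 1.38 in the AS females, 1.59, 1.10 and 0.97 in the WT males and 1.14, 1.15 and 1.65 in the AS males. Psmb8 was highest in AS female 2, Psmb9 in WT female 3 with AS female 2 next, and for both genes the groups overlapped by genotype in each sex. Psmb10 was at 4.17, 4.04 and 3.99 in the WT females, 4.04, 4.05 and 3.90 in the AS females, 4.25, 4.18 and 3.89 in the WT males and 4.05, 3.89 and 4.29 in the AS males, with overlap throughout. The genotype difference over both sexes was 0.13 ± 0.16 for Psmb8, 0.06 ± 0.19 for Psmb9 and -0.05 ± 0.08 for Psmb10, and none was called by limma. On the abundance scale each constitutive subunit exceeded its counterpart in every library. The ratio of Psmb5 to Psmb8 had a median of 33.4 and ran from 17.8 in AS female 2 to 47.1, that of Psmb6 to Psmb9 had a median of 82.2 (42.2 in WT female 3 to 110), and that of Psmb7 to Psmb10 had a median of 8.75 (7.38 in WT male 2 to 9.60). With base 2 the medians would be 14.4, 31.7 and 4.89. Mean abundance was 1.58 for Psmb9 and 3.27 for Psmb8, near the lower limit of 1 for testing. Ratios to these genes rest on small denominators whose counting error is unknown. Exons of Psmb9 share 212 bases with Tap1 on the opposite strand.

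Interferon-stimulated and antigen presentation genes were read beside the inducible subunits. Over 23 of the 24 listed genes the mean was 4.07 in AS female 2 and 2.72 to 3.24 in the other 11 libraries. The library with the highest Psmb8 was thus also the highest for this list, and the part of either in the other was not tested. The 11 microglia markers had means of 4.52 in the WT females, 4.59 in the AS females, 4.49 in the WT males and 4.47 in the AS males.

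Among the 6 ATPases of the cap base, which unfold substrates and open the core, Psmc2 and Psmc1 had the smallest p for genotype. Psmc2 (ENSMUSG00000028932, chr5:21785283-21803787, GRCm38) was at 6.01, 6.03 and 5.98 in the WT females, 6.17, 6.11 and 6.06 in the AS females, 6.00, 5.95 and 5.99 in the WT males and 6.08, 6.04 and 6.09 in the AS males. Every AS library lay above every WT library, though by little. The difference was 0.11 ± 0.05 in females, 0.09 ± 0.05 in males and 0.10 ± 0.04 over both sexes (limma adjusted p = 0.893, range over the alternatives 0.455 to 0.999). Psmc1 was at 6.73, 6.55 and 6.64 in the WT females, 6.64, 6.64 and 6.55 in the AS females, 6.55, 6.59 and 6.54 in the WT males and 6.70, 6.72 and 6.66 in the AS males. The AS males lay above the WT males by 0.14 ± 0.06, the females overlapped at -0.03, and the interaction of 0.17 ± 0.08 was the one with the smallest p of the members (limma adjusted p = 0.987).

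The other ATPases described here are Psmc6 and Psmc5, for their values by sex. Psmc6 was at 6.11, 6.22 and 6.18 in the WT females, 6.23, 6.14 and 5.94 in the AS females, 5.94, 6.03 and 5.99 in the WT males and 5.88, 6.15 and 6.03 in the AS males. WT males lay wholly below WT females, by -0.18 ± 0.08 (limma adjusted p = 0.659). Psmc5 was at 6.77, 6.75 and 6.73 in the WT females, 6.78, 6.73 and 6.78 in the AS females, 6.84, 6.88 and 6.67 in the WT males and 6.87, 6.81 and 6.92 in the AS males. AS males lay wholly above AS females, by 0.10 ± 0.06, which limma did not call.

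The remaining base subunits Psmd1, Psmd2 and Psmd4 hold the scaffold and ubiquitin-binding sites of the cap. Psmd1 was at 5.78, 5.74 and 5.64 in the WT females, 5.77, 5.91 and 5.79 in the AS females, 5.68, 5.54 and 5.75 in the WT males and 5.78, 5.81 and 5.83 in the AS males. AS males exceeded all WT males, by 0.15 ± 0.07, while the females overlapped at 0.10 ± 0.07. Over both sexes the difference was 0.13 ± 0.05, which limma did not call (adjusted p 0.544 to 1.00 over the alternatives). Psmd4, a ubiquitin receptor, differed by genotype by -0.03 ± 0.05 over both sexes with a 95% interval of -0.14 to 0.08.

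Psmd14 is the deubiquitinase of the lid, which cuts ubiquitin chains from substrates, and Psmd7 is its inactive partner. Psmd14 (ENSMUSG00000026914, chr2:61711694-61800376, GRCm38) was at 6.17, 6.24 and 6.09 in the WT females, 6.23, 6.18 and 6.12 in the AS females, 6.05, 6.08 and 6.08 in the WT males and 6.18, 6.39 and 6.20 in the AS males. The WT males were the lowest group and the AS males lay wholly above them, while the females overlapped. AS exceeded WT by 0.19 ± 0.07 in males (95% interval 0.04 to 0.34, limma adjusted p = 0.748, range over the alternatives 0.594 to 0.999) and by 0.01 ± 0.07 in females, with an interaction of 0.18 ± 0.09 that did not reach an unadjusted p under 0.05. Psmd7 was at 6.16, 6.16 and 6.13 in the WT females, 6.21, 6.15 and 6.21 in the AS females, 6.11, 6.11 and 6.08 in the WT males and 6.22, 6.23 and 6.23 in the AS males. Its AS males lay close together and above every WT library, by 0.12 ± 0.05 over the WT males (limma adjusted p = 0.759).

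The structural lid subunits followed no single pattern. Psmd6 was at 6.16, 6.16 and 6.22 in the WT females, 6.33, 6.13 and 6.09 in the AS females, 6.09, 5.96 and 6.12 in the WT males and 6.20, 6.19 and 6.23 in the AS males. Psmd11 was at 5.00, 4.92 and 4.86 in the WT females, 4.87, 4.89 and 4.92 in the AS females, 4.82, 4.82 and 4.97 in the WT males and 4.86, 5.11 and 5.04 in the AS males. The AS males exceeded all WT males for Psmd6, by 0.15 ± 0.07, and overlapped them for Psmd11. Psmd13 was at 6.18, 5.85 and 6.15 in the WT females, 6.10, 5.93 and 5.95 in the AS females, 5.92, 5.90 and 5.85 in the WT males and 6.10, 6.11 and 5.86 in the AS males. Psmd3 was at 5.63, 5.70 and 5.60 in the WT females, 5.69, 5.74 and 5.75 in the AS females, 5.84, 5.77 and 5.76 in the WT males and 5.83, 5.57 and 5.86 in the AS males. Both overlapped by genotype, exons of Psmd13 share 342 bases with Sirt3 on the opposite strand, Psmd3 was higher in WT males than in every WT female, and AS male 2 was its lowest library. Interactions were 0.15 ± 0.10 for Psmd6, 0.17 ± 0.11 for Psmd11 and 0.20 ± 0.14 for Psmd13, none called by limma. Averaged over the 8 lid subunits, the level was 5.88 ± 0.03 (SD, n = 3) in WT females, 5.88 ± 0.04 in the AS females, 5.82 ± 0.02 in the WT males and 5.92 ± 0.0045 in the AS males. Single lid subunits varied more in the AS males, with SDs from 0.0067 (Psmd7) to 0.16 (Psmd3). Their shifts partly cancelled in the average: AS male 2 was the highest library for Psmd14 (6.39) and the lowest for Psmd3 (5.57).

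The activators bind the core in place of the 19S cap. Psme3 (ENSMUSG00000078652, chr11:101316213-101323537, GRCm38) encodes the gamma subunit of the nuclear ring activator and had the smallest p of any member for genotype. It was at 5.76, 5.67 and 5.64 in the WT females, 5.98, 5.88 and 5.86 in the AS females, 5.54, 5.58 and 5.71 in the WT males and 5.79, 5.79 and 5.70 in the AS males. The AS females lay above every other library, and among males only AS male 3 and WT male 3 kept the genotypes from separating. AS exceeded WT by 0.21 ± 0.06 in females (95% interval 0.07 to 0.35, limma adjusted p = 1.00), 0.15 ± 0.06 in males (limma adjusted p = 0.763) and 0.18 ± 0.05 over both sexes (95% interval 0.08 to 0.28), a 1.13-fold ratio of abundance + 1. The adjusted p over both sexes was 0.661 by limma, with a range over the alternatives of 0.355 to 0.999. Without WT female 1 the difference was 0.25 in females and 0.20 over both sexes. Males were lower than females in AS by -0.15 ± 0.06, with no overlap.

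Psme4, a large nuclear activator, and the interferon-inducible pair Psme1 and Psme2 showed other patterns. Psme4 was at 3.85, 3.79 and 3.80 in the WT females, 3.79, 3.70 and 3.82 in the AS females, 3.81, 4.05 and 3.90 in the WT males and 3.68, 3.88 and 3.58 in the AS males. Its male groups overlapped through AS male 2, and the difference of -0.21 ± 0.09 in males was the one below 0 with an unadjusted p under 0.05 there (limma adjusted p = 0.763). Psme1 was at 5.64, 5.58 and 5.56 in the WT females, 5.68, 5.70 and 5.51 in the AS females, 5.71, 5.12 and 5.58 in the WT males and 5.64, 5.56 and 5.69 in the AS males. WT male 2 lay far below the other 11 libraries for Psme1, and the genotype difference in males was 0.16 ± 0.12. Psme2 differed by -0.06 ± 0.11 in females and 0.09 ± 0.11 in males. Its highest library was AS female 2, at 5.50, and its lowest was AS female 3, at 4.98. The inhibitor Psmf1 differed by 0.09 ± 0.08 over both sexes.

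**Figure D5:**
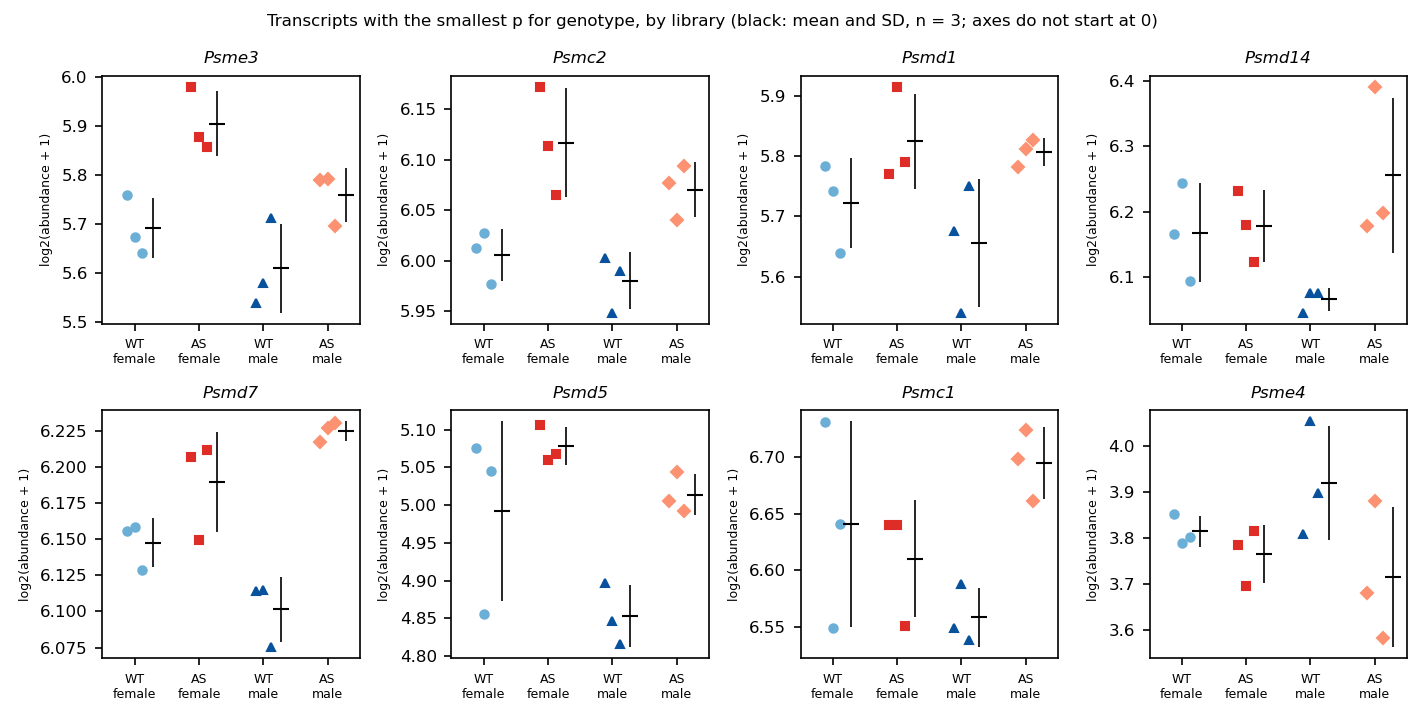
Level of 8 transcripts as log2(abundance + 1) on the y axis, 1 symbol per library and 4 groups on the x axis, with black marks for the mean and SD of 3 mice; the axes do not start at 0. In Psmc2 every AS library is above every WT library, in Psme3 the AS females are highest, and in Psmd14 and Psmd7 the AS males lie above the WT males.

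Assembly factors of the cap base bind its ATPases until these are built in. Psmd5 was at 5.08, 4.86 and 5.05 in the WT females, 5.11, 5.06 and 5.07 in the AS females, 4.90, 4.85 and 4.82 in the WT males and 5.01, 5.04 and 4.99 in the AS males. AS males lay above all WT males, by 0.16 ± 0.06 (limma adjusted p = 0.763), while among females WT female 2 was low and the others lay close together, with a difference of 0.09 ± 0.06. Over both sexes the difference was 0.12 ± 0.05, and males were below females by -0.14 ± 0.06 in WT (limma adjusted p = 0.651). Psmd9 was at 3.45, 3.56 and 3.65 in the WT females, 3.54, 3.60 and 3.57 in the AS females, 3.50, 3.58 and 3.20 in the WT males and 3.43, 3.40 and 3.29 in the AS males. AS males were wholly below AS females for Psmd9, by -0.20 ± 0.10, and the genotypes overlapped in both sexes. Psmd10, which encodes gankyrin, differed by -0.06 in females and -0.12 in males.

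The 4 core assembly factors guide the alpha ring. Psmg2 was at 4.23, 4.16 and 4.03 in the WT females, 4.11, 4.20 and 4.18 in the AS females, 4.08, 3.86 and 4.13 in the WT males and 4.13, 4.16 and 4.42 in the AS males. Psmg3 was at 3.77, 3.84 and 3.81 in the WT females, 3.81, 3.65 and 3.48 in the AS females, 3.92, 3.95 and 3.69 in the WT males and 3.42, 3.72 and 3.81 in the AS males. Psmg4 was at 3.55, 3.46 and 3.53 in the WT females, 3.70, 3.39 and 3.88 in the AS females, 3.62, 3.56 and 3.67 in the WT males and 3.58, 3.68 and 3.92 in the AS males. The genotypes overlapped in both sexes for all 3 genes. The difference in males was 0.21 ± 0.10 for Psmg2, with AS male 3 highest and WT male 2 lowest, and 0.11 for Psmg4. That of Psmg3 was -0.16 ± 0.12 in females and -0.18 ± 0.08 over both sexes (limma adjusted p = 0.914), and that of Psmg4 in females was 0.14 ± 0.12.

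Other genes of the pathway were read from 3 lists. The first held 23 symbols of proteasome genes without the prefix and their partners, some of them aliases of the same gene, and 19 were in the table. Their differences lay above 0 for 14 in females, 15 in males and 16 over both sexes, against 51.6%, 52.4% and 52.7% of all genes. The medians were 0.03, 0.05 and 0.04, with no call by limma. Usp14, a deubiquitinase bound to the cap, was the 1 of 19 with an unadjusted p under 0.05, in males, against 6.42% of all genes there. It was at 6.49, 6.49 and 6.56 in the WT females, 6.57, 6.57 and 6.35 in the AS females, 6.37, 6.35 and 6.43 in the WT males and 6.52, 6.69 and 6.54 in the AS males. AS males lay above WT males for Usp14, by 0.20 ± 0.07 (limma adjusted p = 0.748). Pomp, which matures the core, differed by -0.10 ± 0.08 in females and 0.10 ± 0.08 in males.

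Of 10 regulators of proteasome genes, 6 had a difference above 0 in females, 2 in males and 5 over both sexes, and none had an unadjusted p under 0.05 for genotype. Nfe2l1, at a mean of 6.68, differed by 0.05 ± 0.08 in females and -0.03 ± 0.08 in males. In the WT sex comparison, Nfe2l2 (-0.33 ± 0.14), Maf (-0.22 ± 0.10) and Mafg (0.21 ± 0.08) had unadjusted p under 0.05, 3 of the 10 against 7.7% of all genes, and were not called by limma. Of 6 ubiquitin precursor and E1 genes, differences lay above 0 for 0 in females, 2 in males and 1 over both sexes. None of the 3 lists had a member called for genotype.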

How the data were processed

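Each of the 12 libraries came from 1 mouse (right hippocampus, its ventral part, polyadenylated RNA), and all carry the same lane number, 7. The submitters' processing notes name Trimmomatic, Bowtie2, RSEM and the GRCm38 (mm10) genome without versions. The authors deposited 1 table of 13951 Ensembl genes, whose values were read here as natural logs (ln) of abundance + 1. Its log base, added constant, abundance unit and normalization are not given in the sources used here. Values between 2 and 5 were shared by all 12 columns (100%), as quantile normalization gives. The table holds no counts, so depth is unknown and no counting error is given.

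Values were converted to log2(abundance + 1), and the 93 genes averaging under 1 were not tested. limma 3.58.1 in R 4.3.3 fitted 4 group means to all 12 libraries, with a variance trend and 8 residual degrees of freedom. The plan had set a count model for a table of counts, and limma was used because the table holds log values. Symbols came from GENCODE M21 for 13735 genes, and 216 had none.

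Library values are printed for members with the smallest unadjusted p (6 per genotype comparison and for the interaction, 3 per sex comparison), the catalytic subunits and their inducible counterparts, the most and least abundant members, and those with a library far from the others of its genotype or sex. The members, lists and rules were chosen with earlier results of these data known, so no p is given for a list. Model fits were checked on simulated data in which genes varied independently and the planted differences were larger than any of the members' differences. That check therefore says nothing on differences of the members' size. Alternatives were another log base, constant, filter, scaling, prior or weighting, a choroid plexus covariate, fewer groups, and libraries left out in turn. The CCGGAAG motif was added after the promoters were seen.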

Additional observations from a re-analysis of the deposited data

Results flagged for a closer look

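Within the 6 libraries of a genotype or of a sex, the highest or lowest library was compared with its nearest neighbour, taking the gap as a share of the range. Of 188 such sets over the 47 members, 11 had a gap share above Dixon's 95% critical value for 6 values, which chance passes in about 1 in 20. Psme1 in WT male 2 was at 5.12, below the 5.56 to 5.71 of the other WT libraries, and it was as far below the other male libraries. Psmb8 in AS female 2 was at 2.75, above the 1.87 to 2.17 of the other AS libraries and the 1.88 to 2.17 of the other females. The interferon-stimulated and antigen presentation list was also highest in that library, at 4.07, and its part in the result was not tested. Low libraries were WT female 2 for Psmd5 (4.86, other females 5.05 to 5.11), AS male 2 for Psmd3 (5.57, other males 5.76 to 5.86) and for Psmb2 (6.01, other AS libraries 6.18 to 6.27), and AS female 2 for Psmd7 (6.15, other AS libraries 6.21 to 6.23). High libraries were AS male 3 for Psmg2 (4.42, other AS libraries 4.11 to 4.20) and for Psmg4 (3.92, other males 3.56 to 3.68), and AS female 1 for Psmb7 (7.18, other females 7.04 to 7.07). WT female 2, AS female 2 and AS male 2 were among the 4 libraries with high choroid plexus markers, and the part of these in the results was not tested.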

How the results depend on the processing

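No member was called by limma under any alternative in any of the 6 comparisons. Medians near 0 changed sign in several classes, also some not listed below. As each library was left out, inducible medians ran from -0.080 to 0.244 in males and -0.025 to 0.155 over both sexes. Those of cap assembly ran from -0.076 to 0.020 over both sexes. In females ranges were -0.030 to 0.017 for ATPases, -0.014 to 0.049 for the alpha ring and -0.0049 to 0.042 for the beta ring. Over the other alternatives, the median over members in females ran from -0.0031 to 0.020. The smallest adjusted p of a named member under an alternative was 0.355, for Psme3 over both sexes with library quality weights. The median over members in males ran from 0.039 to 0.112 as each library was left out, and that of the interaction from 0.0070 to 0.080. Read as base 2, the lid median in males was 0.088, with quality weights it was 0.094, and without the 4 libraries with high choroid plexus markers it was 0.084. Leaving those 4 out also gave a lid median of 0.037 and a cap assembly median of -0.099 in females and a beta-ring median of 0.112 in males. As each library was left out, medians in females ran from -0.022 to 0.034 for the lid and from -0.00040 to 0.095 for activators and inhibitor. In males they ran from 0.020 to 0.089 for ATPases, -0.169 to 0.022 for cap assembly, 0.084 to 0.127 for the lid and -0.012 to 0.112 for the beta ring. Over both sexes the median of activators and inhibitor ran from 0.011 to 0.122. The cause was not tested. In males, 9 members at an unadjusted p under 0.05 became 2 with only the male libraries fitted, 3 without those 4 libraries (890, 670 and 957 of all genes) and 4 to 8 as each library was left out. Over both sexes, 6 became 2 without those 4, 9 with quality weights and 3 to 11 as each was left out. In females, 2 became 1 or stayed at 2. No paired analysis was possible because the replicate numbers follow accession order and no label ties mice across groups. Depth is unknown, so the counting error behind each value was not measured.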
